A study of Rattus norvegicus with 8 samples.

Results

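The annexins are calcium-dependent, phospholipid-binding proteins, and S100a10 (p11) is the small S100-type partner of annexin A2. All 9 genes chosen, the annexins Anxa1, Anxa2, Anxa3, Anxa4, Anxa5, Anxa6, Anxa7 and Anxa11 together with S100a10, were taken by gene symbol from the 13272 symbols of the hippocampal RNAseq table, where they held 10 of 16266 transcript rows. The genes were selected on their names with the group FPKM values of this same comparison known, so those values are given below as a description and carry no test. The RNA came from whole hippocampi of adult adrenalectomized (ADX) rats, whose main source of corticosterone had been removed. In the vehicle group, 4 rats received 0.45% saline for 30 min by infusion starting at zeitgeber time (ZT) 2, and in the CORT group 4 rats received corticosterone at 0.75 mg/mL, complexed to 2-hydroxypropyl-beta-cyclodextrin, in the same way. The titles of the 4 vehicle samples call them untreated, whereas their treatment label names the saline vehicle, which was followed here. The cyclodextrin carrier is named for the CORT infusion and not for the vehicle. The sample labels give Sprague-Dawley rats of 3 to 4 months, whereas the study's methods name younger male Lister hooded rats. The labels give ZT 2 as the time, whereas the methods place tissue collection after the infusion. All rats had been given corticosterone in their drinking saline after surgery, replaced by plain saline before the infusion.

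Annexins share a core of repeated domains that binds acidic membrane phospholipids when calcium rises, and differ in the N-terminal tail through which they bind partner proteins. Annexin A1 (lipocortin 1) is a classical glucocorticoid-inducible mediator in leukocytes and other peripheral cells, and acts through formyl peptide receptors to limit inflammation. Annexin A2 and S100a10 form a heterotetramer at the plasma membrane that binds plasminogen and its activator, and in brain S100a10 is also known for binding serotonin receptors. The question of the comparison was which hippocampal transcripts differ after an acute corticosterone infusion in rats without adrenal glands.

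The deposited table holds 1 FPKM value (fragments scaled to transcript length and library size) for each group and transcript, in which the authors combined the 4 rats of a group. No value for a single rat and no read total per library was used, and the authors' own test columns were not used, so the differences below are given without replicate error and the depth behind an FPKM value is unknown here. Log2 ratios divide the FPKM of the CORT group by that of the vehicle group, without a pseudocount. A transcript was counted as past 1.5-fold when this ratio lay beyond 0.58 in either direction. Markers of hippocampal principal neurons were read beside the tissue label. Slc17a7, the vesicular glutamate transporter of these cells, was at 736 FPKM with vehicle against 794 FPKM with CORT, and Prox1, a transcription factor of dentate granule cells, was at 10.9 and 8.96 FPKM. Neither marker is limited to the hippocampus, so their presence does not exclude adjoining tissue, whose markers are given below.

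Anxa1, Anxa2, Anxa3 and S100a10 had the lowest ratios of the members, with levels between 1.40-fold and 2.05-fold lower in the CORT group, whereas Anxa5, Anxa6, Anxa7 and Anxa11 lay within 1.14-fold of the vehicle level. Of the 10 transcript rows, 2 were past 1.5-fold lower in CORT, those of Anxa1 and Anxa2, beside 4.91% of all rows of the table. A single row, the minor transcript of Anxa4, was past 1.5-fold higher, beside 4.21% of all rows. Counted once per gene by the transcript with the highest mean FPKM, 2 of the 9 genes were past 1.5-fold lower and 0 higher, beside 3.99% and 1.92% of all symbols. With FPKM summed per gene the counts were also 2 lower and 0 higher, beside 3.75% and 1.77% of all symbols. Among the 9 member rows with at least 1 FPKM in both groups they were 2 and 0, beside 2.87% and 2.51% of such rows, and with a pseudocount of 1 FPKM 2 and 1 of the 10 rows, beside 2.35% and 2.25%. At a log2 ratio beyond 0.32 there were 4 lower and 1 higher, beside 10.8% and 9.54% of all rows, and beyond 1, that is 2-fold, 1 lower and 1 higher, beside 2.03% and 1.92%. The median log2 ratio of the 10 rows was -0.16, and that of all rows was 0.02. Nearest to the 1.5-fold limit stood Anxa2 on the outside, at -0.73, and Anxa3 on the inside, at -0.56. These genes were selected with their values in view, so nothing particular to the family is read from these counts.

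**Figure D1:**
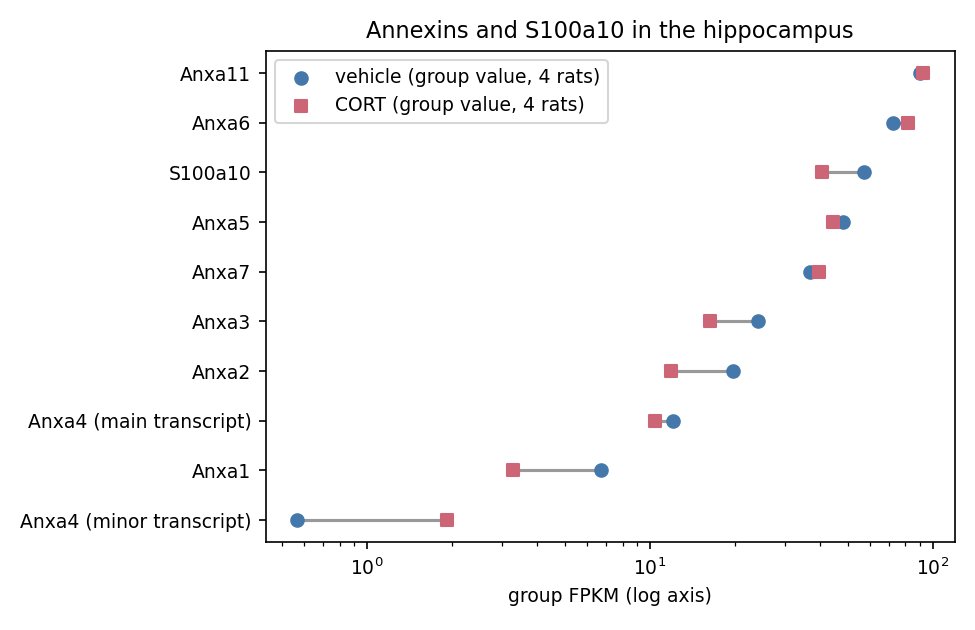
Group FPKM (log axis) of the 10 transcript rows of the annexins and S100a10, with circles for vehicle and squares for CORT, each point being 1 value for 4 rats. The points of Anxa1, Anxa2, Anxa3 and S100a10 are separated with CORT on the lower side, those of Anxa11 lie almost on each other at 89.9 and 92.7 FPKM, and the minor transcript of Anxa4 is separated with CORT on the higher side.

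Promoter sequence is shown for 3 members, Anxa1 and Anxa2 because they had the lowest CORT over vehicle ratios, and Anxa11 because it was the most abundant member and its ratio was near 1. Each run gives the 250 bases before the gene start in the RefSeq annotation of the GRCr8 build, in the direction of transcription, whereas the FPKM table uses rn6. Capitals mark matches to 3 motifs, searched on both strands. The TATA box was searched as TATAAA. The GC box, bound by Sp1, was searched as GGGCGG, and its matches in Anxa11 are all on the other strand. The site of AP-1 was searched as TGAGTCA. The windows lie at chr1:227303733-227303982 on the minus strand for Anxa1, at chr8:78986002-78986251 on the plus strand for Anxa2, and at chr16:1419484-1419733 on the plus strand for Anxa11.
Anxa1: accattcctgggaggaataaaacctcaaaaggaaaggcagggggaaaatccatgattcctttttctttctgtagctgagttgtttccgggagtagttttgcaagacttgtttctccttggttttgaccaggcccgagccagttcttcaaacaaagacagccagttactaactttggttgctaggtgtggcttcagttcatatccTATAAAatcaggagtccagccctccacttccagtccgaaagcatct
Anxa2: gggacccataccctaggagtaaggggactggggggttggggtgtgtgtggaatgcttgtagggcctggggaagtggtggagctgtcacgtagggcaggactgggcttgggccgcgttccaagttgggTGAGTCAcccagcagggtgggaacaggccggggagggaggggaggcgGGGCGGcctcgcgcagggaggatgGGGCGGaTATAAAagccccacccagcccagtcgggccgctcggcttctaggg
Anxa11: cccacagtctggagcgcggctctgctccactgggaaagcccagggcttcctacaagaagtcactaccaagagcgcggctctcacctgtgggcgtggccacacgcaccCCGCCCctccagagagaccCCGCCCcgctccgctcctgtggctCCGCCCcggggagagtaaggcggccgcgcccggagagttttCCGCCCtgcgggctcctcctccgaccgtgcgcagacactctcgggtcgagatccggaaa

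These letters were searched in windows of 300 bases, from 250 before to 50 after the start, for the 7 members with an entry, together with the CCAAT box. There was no entry for Anxa6 and S100a10. The promoters of Anxa1 and Anxa2 each held 1 TATAAA, which began 46 and 45 bases before the start, and the other 5 held none, beside 14.2% of all 33469 promoters. GGGCGG was present in 6 of the 7, all but Anxa1, beside 33.1% of all promoters, with 4 matches in Anxa11 and 3 in Anxa3. The Anxa2 promoter alone among the 7 held TGAGTCA, which 4.63% of all promoters hold. CCAAT was found in the promoters of Anxa4 and Anxa7, and in 37.5% of all promoters. The half-site of the glucocorticoid receptor, searched as AGAACA on both strands, was in 0 of the 7 windows and in 20.7% of all promoters, and the full inverted repeat of this half-site with any 3 bases between, which holds the half-site by its make, was in 0 of the 7 and in 0.0149% of all promoters. A missing match says only that these letters are not in the window searched. The Anxa1 promoter also had the lowest GC content of the 7, at 45% with 3 CpG dinucleotides, whereas the other 6 lay between 54.3% and 68.0% with 12 to 27 CpG, and the median of all promoters was 51.7% with 7 CpG.

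Anxa1, at chr1:237893965-237910012 of rn6 as the table gives it, was at 6.72 FPKM with vehicle against 3.28 FPKM with CORT. Its log2 ratio was -1.04, or a 2.05-fold lower level in CORT. It was the member with the lowest level in each group, and 34.3% of all transcript rows had a lower mean FPKM. Of all rows, 1.95% had a log2 ratio as low as that of Anxa1 or lower, and of the 15004 rows with at least 1 FPKM in both groups, 0.740% did. The level was thus lower in CORT for a gene known to be raised by glucocorticoids in leukocytes. With a pseudocount of 1 FPKM the log2 ratio was -0.85, still past 1.5-fold.

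Anxa2, at chr8:75687099-75723594, was at 19.7 FPKM with vehicle against 11.9 FPKM with CORT, a log2 ratio of -0.73. Of the rows with at least 1 FPKM in both groups, 1.76% had a ratio as low or lower. Its partner S100a10, at chr2:193892588-193901236, was at 57.0 FPKM with vehicle against 40.7 FPKM with CORT, a log2 ratio of -0.49, which did not reach 1.5-fold. In FPKM, S100a10 had the largest difference of the 10 rows, -16.3 FPKM, against -7.83 FPKM for Anxa2. The level of S100a10 was 2.90 times that of Anxa2 with vehicle and 3.43 times with CORT, so S100a10 was the more abundant transcript of the pair in each group. The transcript levels of the pair thus both had ratios below 0, that of Anxa2 past 1.5-fold and that of S100a10 not, and protein was not measured here.

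Anxa3 (lipocortin 3), at chr14:14364007-14426437, was at 24.0 FPKM with vehicle against 16.3 FPKM with CORT. Its log2 ratio of -0.56, or 1.48-fold lower, lay just inside the 1.5-fold limit. Of the rows with at least 1 FPKM in both groups, 3.13% had a ratio as low or lower. Summed, Anxa1, Anxa2 and Anxa3 made up 50.4 FPKM with vehicle against 31.4 FPKM with CORT.

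Anxa4, at chr4:118538776-118595580, was the single member with more than 1 transcript in the table. The main transcript, ENSRNOT00000024436.7, was at 12.04 FPKM with vehicle against 10.4 FPKM with CORT, a log2 ratio of -0.21. The minor transcript, ENSRNOT00000080502.1, was at 0.565 FPKM with vehicle against 1.91 FPKM with CORT, a log2 ratio of 1.76, and 8.32% of all rows had a lower mean FPKM. Both are given the same locus, and the division of shared reads between them is an estimate, so each value is uncertain where the isoforms overlap. With their FPKM summed, Anxa4 was at 12.6 FPKM with vehicle against 12.3 FPKM with CORT, a log2 ratio of -0.03. The minor transcript was thus 3.39-fold higher in CORT, a difference of 1.35 FPKM, beside one of -1.61 FPKM for the main transcript.

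The 4 remaining annexins were the abundant ones and, by single transcripts, differed least between the groups. Anxa5, at chr2:123162460-123193130, which binds phosphatidylserine and is widely used to stain dying cells, was at 48.0 FPKM with vehicle against 44.5 FPKM with CORT, a log2 ratio of -0.11. Anxa6, at chr10:40320580-40375605, a membrane organiser with a doubled annexin core, was at 72.0 and 81.9 FPKM, a log2 ratio of 0.19. A further annotated symbol, AC093965.1, overlaps the Anxa6 locus, and it is not stated whether strand was used in the estimate, so reads of the pair may not be separable.

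Anxa7 (synexin), at chr15:4254498-4281287, known for calcium-driven membrane fusion, was at 36.7 FPKM with vehicle against 39.6 FPKM with CORT, a log2 ratio of 0.11. Anxa11, at chr16:3867207-3912148, whose protein links RNA granules to lysosomes and is altered in some motor neuron disease, was at 89.9 and 92.7 FPKM, a log2 ratio of 0.04. Anxa6, Anxa7 and Anxa11 thus had ratios above 0, Anxa5 did not, and all 4 of these annexins lay well inside the 1.5-fold limit. Their summed level was 247 FPKM with vehicle against 259 FPKM with CORT.

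The order of levels was largely shared by the groups. With transcripts summed per gene, it ran with vehicle from Anxa11 through Anxa6, S100a10, Anxa5, Anxa7, Anxa3, Anxa2 and Anxa4 to Anxa1. With CORT, Anxa5 stood above S100a10, and Anxa4 above Anxa2, at 12.3 against 11.9 FPKM, and the other places were as with vehicle. Without values per rat, it cannot be said which neighbours in this order differ beyond their spread. The range was wider with CORT, from a 13.4-fold gap between Anxa11 and Anxa1 with vehicle to a 28.3-fold gap with CORT.

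The summed level of the 8 annexins hardly differed, 310 FPKM with vehicle against 302 FPKM with CORT, a log2 ratio of -0.03. Its makeup did differ. Anxa1, Anxa2 and Anxa3 held 16.3% of the annexin FPKM with vehicle and 10.4% with CORT. They accounted for a difference of -19.0 FPKM, against 11.99 FPKM in the other direction for Anxa5, Anxa6, Anxa7 and Anxa11. These groupings were made by the ratios themselves, so the lower share of Anxa1, Anxa2 and Anxa3 with CORT follows from that choice. Anxa6 took 23.3% of the annexin FPKM with vehicle and 27.1% with CORT, and Anxa11 took 29.0% and 30.6%. Among the 9 genes, the less abundant tended to have the lower ratios, with a Spearman correlation between mean FPKM and log2 ratio of 0.72 over 9 genes measured in the same libraries. Over the 15004 rows with at least 1 FPKM in both groups this correlation was 0.09. Both are descriptions across genes, which are not independent.

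**Figure D2:**
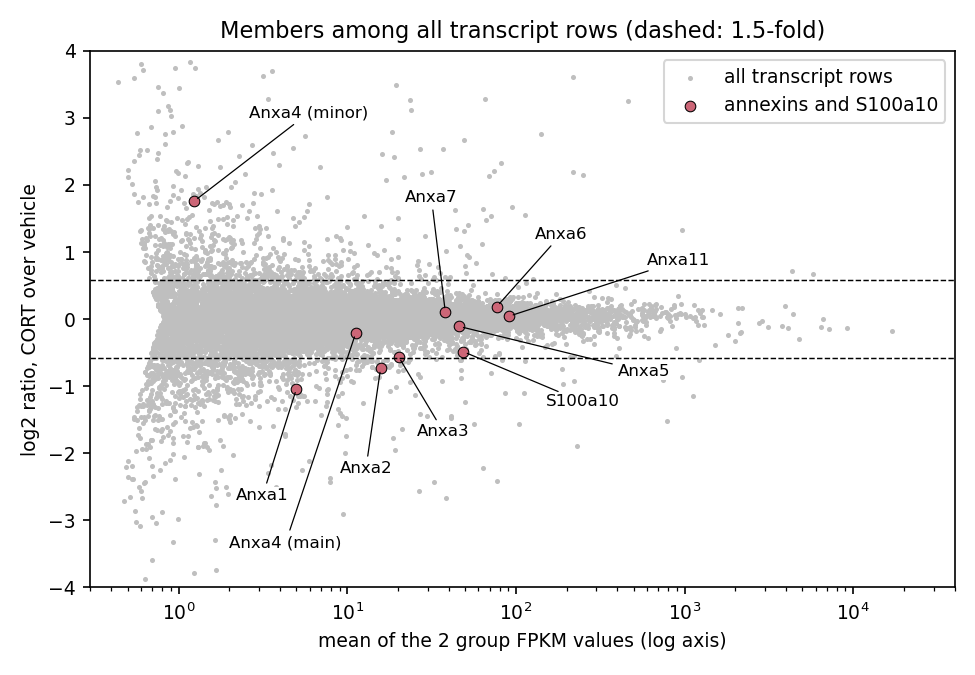
Log2 ratio of CORT over vehicle against the mean of the group FPKM values (log axis) for all transcript rows (grey) and the 10 rows of the annexins and S100a10 (red), with dashed lines at 1.5-fold. Anxa1 at -1.04 and Anxa2 at -0.73 lie below the lower line, Anxa3 and S100a10 just above it, and the minor transcript of Anxa4 above the upper line, among rows of low FPKM whose ratios scatter widely. A further 45 rows with log2 ratios beyond 4 in size lie outside the axis.

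The members lie on 8 chromosomes, and chromosome 2 alone holds more than 1 of them, Anxa5 and S100a10, at distant loci. Of the 18 symbols in the table nearest to the members on either side in rn6, 1 was past 1.5-fold lower and 1 higher, beside 3.99% and 1.92% of all symbols, and their median log2 ratio was 0.04. Counts this small among 18 symbols are near the share of all symbols. The lower one was S100a11, a partner of annexin A1, which ends 24086 bases before S100a10 and was at 22.4 FPKM with vehicle and lower with CORT, by a log2 ratio of -0.68. The higher one was Fras1, beside Anxa3, a matrix protein gene at 0.893 and 1.49 FPKM. Next to Anxa1, Aldh1a1, an enzyme of retinoic acid synthesis, had a log2 ratio of -0.07 and Prune2 one of 0.05, and next to Anxa2, Gtf2a2, of the general transcription machinery, had a log2 ratio of -0.09 and Ice2 one of -0.01.

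The S100 family consists of small calcium-binding dimers, several of which dock on annexin tails. Of the 11 S100 symbols other than S100a10, 4 were past 1.5-fold lower in CORT and 1 higher, beside 3.99% and 1.92% of all symbols, and their median log2 ratio was -0.08. The 11 include S100pbp, which encodes a binding protein of an S100 protein and not such a dimer, and the other 10 had the same counts and a median of -0.13. S100a4, a gene of motile and mesenchymal cells, was at 60.6 FPKM with vehicle against 22.2 FPKM with CORT, a log2 ratio of -1.45. S100a6 (calcyclin), which binds several annexins, was at 34.7 and 19.1 FPKM, a log2 ratio of -0.86. S100a3 was at 10.9 and 6.06 FPKM, a log2 ratio of -0.85. S100a10, at -0.49, thus had a ratio between those of these genes and those of the 3 abundant members of the family. Of these, S100b, typical of astrocytes, was at 1066 and 1095 FPKM, S100a13 at 164 and 158 FPKM, and S100a1 at 154 and 146 FPKM. S100a9, a calprotectin subunit of neutrophils, was the higher one, at 3.43 FPKM with vehicle against 5.43 FPKM with CORT, and its log2 ratio of 0.66 did not reach 1.5-fold with a pseudocount of 1 FPKM. Relative to its annexin partners, S100a11 was at 3.34 times the level of Anxa1 with vehicle and 4.27 times with CORT. Against Anxa2, S100a11 was at 1.14 times the level with vehicle and 1.18 times with CORT. S100a6 was at 0.386 times the level of Anxa11 with vehicle and 0.207 times with CORT.

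**Figure D3:**
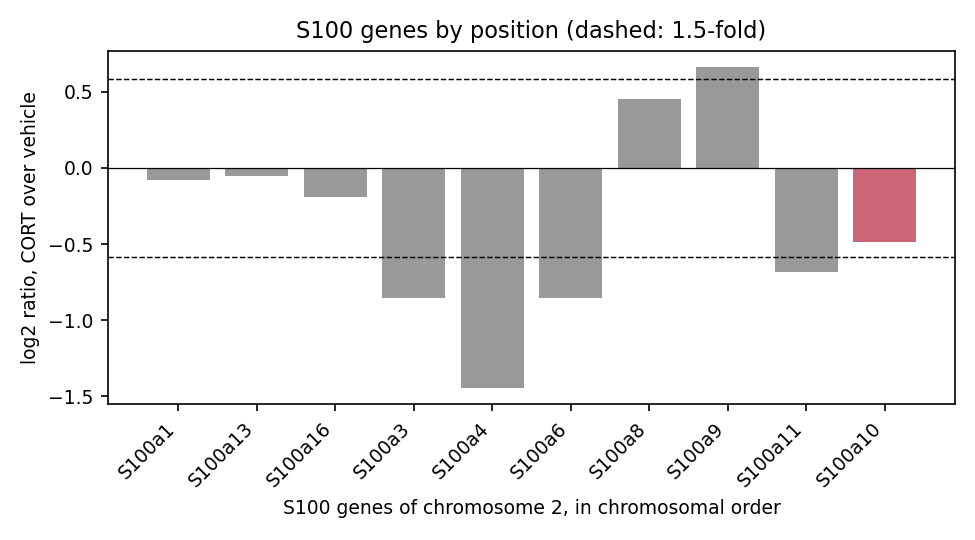
Log2 ratio of CORT over vehicle for the S100 genes of chromosome 2 in chromosomal order, with S100a10 in red and dashed lines at 1.5-fold. S100a3, S100a4, S100a6 and S100a11 lie below the lower line, S100a10 is above it at -0.49, and S100a8 and S100a9 are the genes with ratios above 0.

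Outside the S100 family, 26 genes were listed as partners of the annexins and S100a10 or as part of linked pathways, and 17 had a row. Of these 17, 0 were past 1.5-fold in either direction, beside 3.99% lower and 1.92% higher of all symbols. That share leaves few to be found among 17 genes. Their median log2 ratio was 0.07. The abundant ones were Serpini1, a neuronal inhibitor of plasminogen activator, at 79.3 and 87.0 FPKM, Sri (sorcin), a partner of annexin A7, at 76.0 and 67.8 FPKM, and Tsg101, of the membrane-sorting machinery, at 64.8 and 66.3 FPKM. Plat, the plasminogen activator that binds the annexin A2 complex, was at 20.1 FPKM with vehicle against 21.1 FPKM with CORT. Htr1b and Htr4, the serotonin receptors that S100a10 binds, were at 5.93 and 7.51 FPKM and at 1.37 and 1.17 FPKM. Plat, Htr1b and Htr4 were named here for their link to the complex, outside the rule for list genes.

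Most genes that glucocorticoids are known to raise lay on the other side of 0 from Anxa1. Of 16 such genes, 13 were past 1.5-fold higher in CORT and 1 lower, beside 1.92% and 3.99% of all symbols, with a median log2 ratio of 0.85. This list was chosen with earlier results of these data known, so its counts are a description and no independent control. Sgk1, a kinase of salt handling and plasticity, had a log2 ratio of 1.31, and Pdk4, a brake on glucose oxidation, one of 2.54 from 1.39 FPKM with vehicle. The other 11 were Tsc22d3, Fkbp5, Per1, Klf9, Zbtb16, Nfkbia, Ddit4, Cdkn1a, Errfi1, Sult1a1 and Cnksr3, with log2 ratios between 0.60 and 0.99. The lower one was the metallothionein Mt1, at 156 and 52.7 FPKM, and Mt2A was at 70.5 and 49.5 FPKM. The Mt1 row is placed at chr17:78783436-78812111 and that of Mt2A at chr19:11307966-11308740. Whether reads of similar metallothionein sequences were shared with the Mt1 row was not tested, so its value is uncertain. Mt1 and Mt2A, like Anxa1 and unlike the rest of the list, thus had ratios below 0.

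The pattern of Anxa1 over the 2 groups was nearest, by distance on the log2 FPKM plane, to those of Rac2, Fcgr3a and Lsp1, all genes of leukocytes. Rac2, a small GTPase, was at 7.02 and 3.33 FPKM, Fcgr3a, an Fc receptor, at 7.01 and 3.17 FPKM, and Lsp1, an actin-binding protein, at 6.59 and 3.52 FPKM. The nearest rows to the minor transcript of Anxa4, which had the largest ratio of the members, were of Slc19a3, Atp2c1 and Cpeb2, within 0.13 on the log2 scale. With only 2 group values, such likeness says no more than that the FPKM values were similar, and the search for Anxa1 was added after its values were seen.

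Because whole hippocampi were used, fewer cells of a type and less RNA per cell cannot be told apart, and markers of 13 cell types were read beside the members. The counts past 1.5-fold in these lists stand beside 3.99% lower and 1.92% higher of all symbols. Of 12 markers of meningeal fibroblasts 10 had a row, 9 of them with ratios below 0, 7 were past 1.5-fold lower, beside 3.99% of all symbols, the median log2 ratio was -1.05, and the summed level was 155 FPKM with vehicle against 105 FPKM with CORT. The most abundant was Igf2, a growth factor, at 59.0 and 46.3 FPKM, and the largest ratios were -1.44 for Aldh1a2, an enzyme of retinoic acid synthesis, -1.29 for the collagen gene Col3a1, and -1.25 for the transporter gene Slc22a6. The part of the meninges in the lower levels of the members was not tested.

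Red blood cell markers were lower too. Of 7 listed 4 had a row, all 4 past 1.5-fold lower, and the summed level was 1419 FPKM with vehicle against 812 FPKM with CORT. Hba1 was at 583 and 347 FPKM, Hbb at 580 and 334 FPKM, Hba2 at 253 and 129 FPKM and Alas2, of haem synthesis, at 2.86 and 1.62 FPKM, and near-identical globin copies may share reads. Of 8 markers of macrophages and leukocytes 6 had a row, 5 had ratios below 0 and 3 were past 1.5-fold lower, with a summed level of 65.0 and 48.8 FPKM, of which Lyz2 held 52.6 and 41.7 FPKM. Those 3 were Ptprc at -1.53, Pf4 at -1.21 and Cd14 at -0.74 on the log2 scale, and the marker above 0 was Lyve1 at 0.47. Anxa1 is abundant in such cells in general, and their part in its value was not tested.

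Of 8 mural cell markers, all with a row, 3 were past 1.5-fold lower, beside 3.99% of all symbols, and the summed level was 166 FPKM with vehicle against 72.0 FPKM with CORT. Tagln, a smooth muscle actin-binding protein, was the most abundant at 105 and 22.5 FPKM, and without it the sums were 60.6 and 49.6 FPKM. Pdgfrb and Acta2 had log2 ratios of -0.82 and -0.76. Endothelial markers differed less, with 11 of 12 in the table, 1 past 1.5-fold lower, Kdr at -1.01, a count near that share, and sums of 156 and 157 FPKM. The glucose transporter Slc2a1, with the highest mean level, was at 46.1 and 62.5 FPKM, and without it the sums were 110 and 94.3 FPKM. Ratios below 0 were found for all 8 mural and for 9 of the 11 endothelial markers, and the part of these cells in the levels of the members was not tested.

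Thalamic and habenular neuron markers, which stand for tissue beside the hippocampus, had a summed level of 63.9 FPKM with vehicle against 37.8 FPKM with CORT. All 10 had a row, 8 were past 1.5-fold lower and 1 higher, beside 3.99% and 1.92% of all symbols. The higher one was Rora, which was under 1 FPKM in both groups. Gng8 was the most abundant at 18.1 and 11.7 FPKM, and Chrna3, Gpr151 and Chrnb4 had log2 ratios of -2.61, -2.50 and -1.37. These 3 were under 1 FPKM with CORT. With at least 1 FPKM required in both groups, which leaves out these 3 and Rora, 5 of the remaining markers were past 1.5-fold lower. In that count 0 were higher, and the shares of all transcript rows at that level were 2.87% lower and 2.51% higher. For the choroid plexus, also beside the hippocampus, the marker Ttr was at 6605 FPKM with vehicle against 6598 FPKM with CORT, 11 of 12 markers had a row and 0 were past 1.5-fold, and their sums without Ttr were 408 and 375 FPKM. With transcripts summed per gene, 1 choroid plexus marker, Prlr, was past 1.5-fold higher, at 0.69 on the log2 scale. No listed marker with a row was at 0 in either group, and how far any of these tissues entered the values of Anxa1, Anxa2, Anxa3 or S100a10 was not tested.

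Among glia, all 10 astrocyte markers had a row, 6 with ratios below 0 and 4 above 0, and their median log2 ratio was -0.09. Of the 10, 3 were past 1.5-fold lower, Gfap at 970 and 517 FPKM, Sox9 at -0.89 and Aldh1l1 at -0.67 on the log2 scale. The astrocyte sums were 2048 and 1619 FPKM, and 1078 and 1103 FPKM without Gfap. The value of Aldh1l1 is that of its most abundant transcript, and with its transcripts summed the log2 ratio was -0.05, which leaves 2 astrocyte markers past 1.5-fold. All 11 microglial markers had a row, 10 had ratios below 0, 0 were past 1.5-fold lower, and Tmem119 was higher at 0.96, with sums of 356 and 306 FPKM, led by C1qa at 71.8 and 67.4 FPKM. Oligodendrocyte markers had a median log2 ratio of -0.25, and all 10 had ratios below 0. Of these 10, 1 was past 1.5-fold lower, Opalin, and the sums were 5586 and 4620 FPKM, led by Mbp at 2226 and 1772 FPKM. None of the 6 precursor markers passed 1.5-fold, their sums were 172 and 168 FPKM, and the most abundant was Olig1 at 87.2 and 90.3 FPKM. The part of these cells in the levels of the members was not tested.

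Markers of hippocampal principal neurons and interneurons mostly had ratios above 0, unlike the thalamic and habenular ones. Of 10 principal neuron markers 7 had a row, 5 of them above 0, with a median log2 ratio of 0.11, sums of 1667 and 1812 FPKM, and 1 past 1.5-fold higher, Zbtb20, at 1.55 and 2.72 FPKM, which did not reach 1.5-fold with a pseudocount of 1 FPKM. Of 8 interneuron markers 7 had a row, all above 0, with a median of 0.27, sums of 554 and 683 FPKM, and Sst, the peptide somatostatin, as the most abundant at 151 and 195 FPKM. Anxa6, at 0.19, Anxa7, at 0.11, and Anxa11, at 0.04, were the members with ratios above 0 by their most abundant transcript, and the minor transcript of Anxa4 was also above 0. For comparison, the median of all rows was 0.02. Any part of neurons in the levels of these members was not tested.

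**Figure D4:**
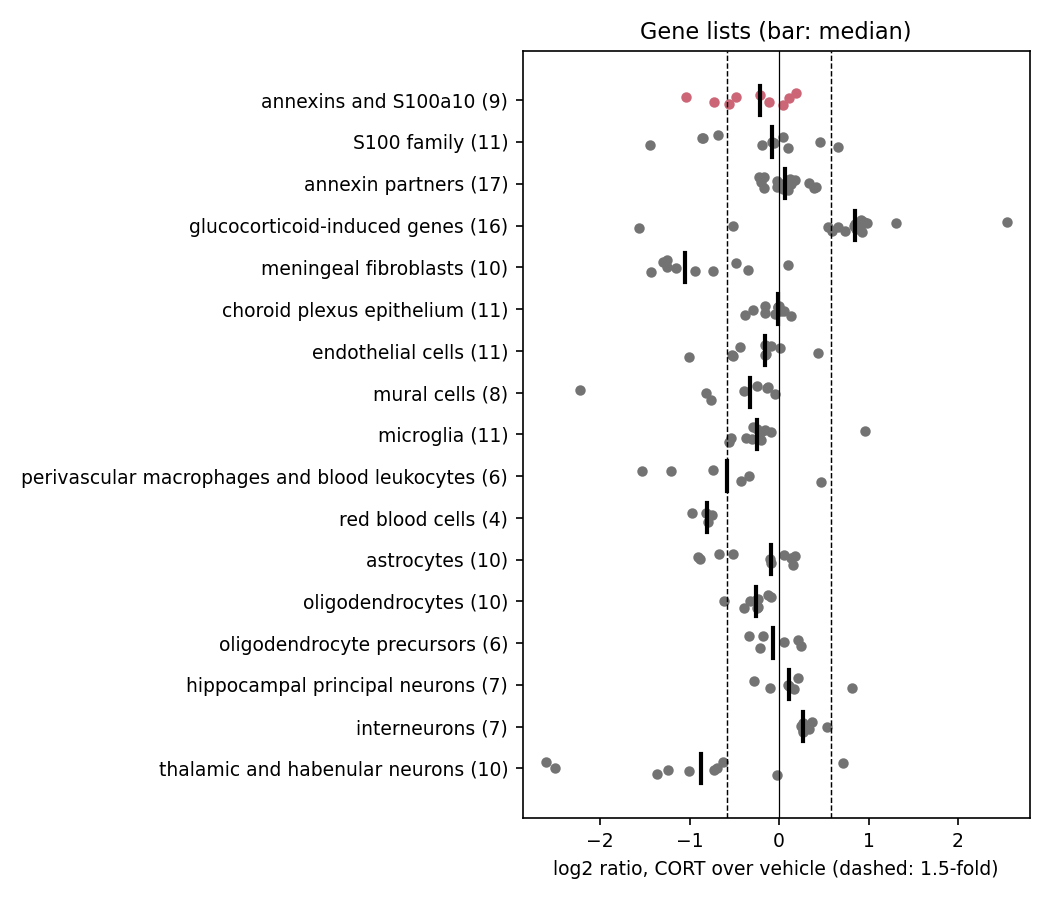
Log2 ratio of CORT over vehicle for the 9 members (red, 1 transcript per gene) and the genes of the other lists (grey, S100a10 left out of the S100 family and S100pbp kept in it), with a bar at each median, dashed lines at 1.5-fold and the number of genes in brackets. The members spread from -1.04 to 0.19, most glucocorticoid-induced genes lie above the upper line, and most meningeal, red blood cell and thalamic or habenular markers lie below the lower one.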

How the data were processed

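RNAseq of 8 rat hippocampi, 4 for each group by the treatment label, was analysed from 1 table of the whole series. Per the labels and the study's methods, the authors made total RNA libraries with a stranded kit, called bases with CASAVA 1.8.2, aligned reads to rn6 with TopHat2 2.0.10 and estimated FPKM per Ensembl transcript and group with Cuffdiff 2.2.0. They normalized libraries geometrically, corrected for multi-mapping reads, bias and effective length, and removed transcripts under a minimum alignment count of 10. The 2 deposited FPKM columns, each the authors' value for a group, were the values used. The authors' columns of fold changes, test statistics, p-values and q-values were not used.

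Here log2 ratios were computed from the FPKM values without a pseudocount, and no test was run, since 1 value per group allows none. Loci are given as deposited. Lists were read by exact symbol, 1 transcript per symbol, the one with the highest mean FPKM. Named from the S100, partner and glucocorticoid lists were genes past 1.5-fold with at least 1 FPKM in a group and the 3 most abundant, and from each marker list the most abundant gene and up to 3 past 1.5-fold. Fras1, Aldh1a1, Prune2, Gtf2a2, Ice2, Plat, Htr1b, Htr4, Prox1, Rora, Prlr, Lyve1, S100pbp and the neighbours of Anxa1 by level were named outside this rule, with their values seen. The members and lists were chosen with earlier results of these data known. The code was tested on simulated data. Python 3.11.15, numpy 2.4.6, pandas 2.3.3, scipy 1.17.1 and matplotlib 3.10.9 were used.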

Additional observations from a re-analysis of the deposited data

How the results depend on the processing

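The number of members past 1.5-fold lower in CORT was 2 with pseudocounts of 1 and 0.1 FPKM, with at least 1 FPKM required in both groups, with centring on the median of all rows, and with summed or single transcripts per gene. With a threshold of 0.32 on the log2 scale it was 4, with Anxa3 and S100a10 added, and with a 2-fold threshold it was 1, Anxa1, as these thresholds imply. The number past 1.5-fold higher was 1 over all rows without a pseudocount, and 0 with at least 1 FPKM required in both groups, with FPKM summed per symbol and with the single most abundant transcript per symbol, since each of these removes or absorbs the minor transcript of Anxa4. For single members, 4 of 39 settings moved a log2 ratio by 0.1 or more and 0 reversed one past 1.5-fold. These were Anxa1 with a pseudocount of 1 FPKM (-0.85), the minor transcript of Anxa4 with pseudocounts of 1 FPKM (0.90) and 0.1 FPKM (1.60), and Anxa4 summed (-0.03). For the counts of single lists, 6 of 128 settings moved one by over 1.5 times, for the S100 family, choroid plexus, principal neuron and thalamic and habenular lists. Of the 155 listed genes other than the members, 35 were past 1.5-fold lower and 17 higher, beside 3.99% and 1.92% of all symbols. Together these are 52, and there were between 43 and 52 under 4 alternatives chosen after the data were seen. Single rats could not be left out in turn, as the table holds group values alone. No paired analysis was possible because neither FPKM column is tied to a numbered rat. Depth is likewise unknown, and with it the precision of low values such as those of the minor Anxa4 transcript.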
